A study of Mus musculus with 2 samples.

Results

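Among immune cells taken from the irradiated mouse intestine, 168 of 19577 were T cells with RNA of 2 genes of dividing cells, 13 in the Dpf2 knockout (KO) library and 155 in the wild-type (WT) library. A cell barcode counted as a dividing T cell if it held at least 2 UMIs of the T cell receptor complex genes Cd3e, Cd3d, Cd3g, Trbc1 and Trbc2, at least 3 UMIs of Mki67 and Top2a together, none of the B cell genes Ebf1 and Pax5, and at most 1 of the myeloid gene Lyz2. A UMI (unique molecular identifier) stands for 1 captured RNA molecule. Without the requirement for Mki67 and Top2a the same gate held 950 T cells in KO and 3212 in WT, so 937 and 3057 T cells served as the other T cells. The cells were thus chosen by these measured UMIs, which are not results.

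The KO library came from DPF2 KO mice and the WT library from WT mice, and both groups had been given 10 Gy of X-rays. There was no unirradiated group. Live immune cells had been sorted by FACS from digested intestine by GFP or tdTomato signal, and the labels do not give the cell types that lost Dpf2, the age and number of the mice or the time after irradiation. Dpf2 encodes a subunit of the BAF chromatin remodelling complex. With 1 library per genotype there is no replicate check of any difference between KO and WT, cells of 1 library are not replicates, and every interval is a 95% interval of counting error only. A PCR copy or a burst of RNA in 1 cell is not covered by it.

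A T cell divides after its receptor and co-stimulatory signals push it past the G1 checkpoint. It copies its DNA in S phase with the MCM helicase, DNA polymerases and newly made histones and deoxynucleotides, and it separates the copies in G2 and M phase with condensins, cyclin B and the spindle. Ionising radiation breaks DNA and activates p53, whose target Cdkn1a (p21) holds cells before S phase. In the gut, T cells include cytotoxic CD8 cells, which carry granzymes, and CD4 cells, among them Th17 cells that secrete IL-17 and IL-22 and regulatory cells that express Foxp3.

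Depth was 49590755 UMIs over 8794 barcodes in KO and 64786549 UMIs over 10958 barcodes in WT, of which 8681 and 10896 cells passed the cell filter. The files shared 24 cell barcodes, and no dividing T cell carried one of them. Dividing T cells were deep: in KO their median was 9562 UMIs (lowest 3567, highest 24126), against 4425 in other T cells, and in WT it was 10804 (lowest 1968, highest 38497), against 4218. All KO dividing T cells together held 128882 UMIs, so 1 UMI of each gene there weighs far more than among the 1887744 UMIs of the WT ones. For a gene at 0 in KO dividing T cells, 3 counts set an upper level of 23.3 CPM, which here means UMIs of the gene per 1000000 UMIs of the set of cells. Dpf2 itself was such a gene: it had no UMI in the 13 KO cells and 86 UMIs (45.6 CPM) in the 155 WT cells. Over all members the interval of its ratio, KO over WT, was 0 to 0.642. Without the 17 WT cells described next, its WT level was 1.95-fold the KO limit of 3 counts. Other KO T cells held it at 19.96 CPM, against 38.3 CPM in other WT T cells. The labels do not give the deleted part of the gene, so its UMIs may not check the knockout.

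T cell RNA was found in most members, and 17 WT ones also carried RNA of another lineage. Genes of the T cell signalling machinery that the gate did not use (Lat, Cd5, Cd2, Lck, Cd247, Themis and Zap70) had at least 1 UMI in each KO member, with a median of 4, and they were found in 150 of the 155 WT members, with a median of 16. Their summed level was 1141 CPM (UMIs per 1000000) in KO dividing T cells and 1319 in other KO T cells, and 1656 in WT dividing T cells and 1856 in other WT T cells. In the 2 sets of WT members described next it was 390.2 and 488 CPM, and 6 of 9 and 7 of 8 of these cells held a UMI of it. Their receptor complex UMIs ran from 3 to 10 and from 2 to 46, against a median of 18 in the remaining WT members. In WT, 9 members carried 157 to 528 UMIs of Jchain, the joining chain of secreted antibody, and as a group 3711 CPM of the plasma cell genes Mzb1, Derl3, Sdc1, Txndc5 and Xbp1, with a median of 54 per cell. Another 8 carried 56 to 620 UMIs of Cst3 and Cd74, genes of antigen-presenting cells, and all 8 had a UMI of Flt3, Xcr1, Siglech or Zbtb46, genes of dendritic cells. The 17 cells were 11% of WT members, against 0 of 13 in KO, which allows a share of up to 23.1%. In other T cells the same limits marked 16 cells in KO and 130 in WT. The doublet caller Scrublet marked 1 KO member and 8 WT members, 7 of the 8 among the 17. The remaining members, 13 in KO and 138 in WT, are the cells without other lineages. In them Jchain was at 1 to 10 UMIs in every KO cell and at 1 to 25 in every WT cell, and the median sum of Cst3 and Cd74 was 2 in KO and 3 in WT. The 17 cells are counted as members wherever the rule is applied, and results that change without them are given both ways.

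**Figure D1:**
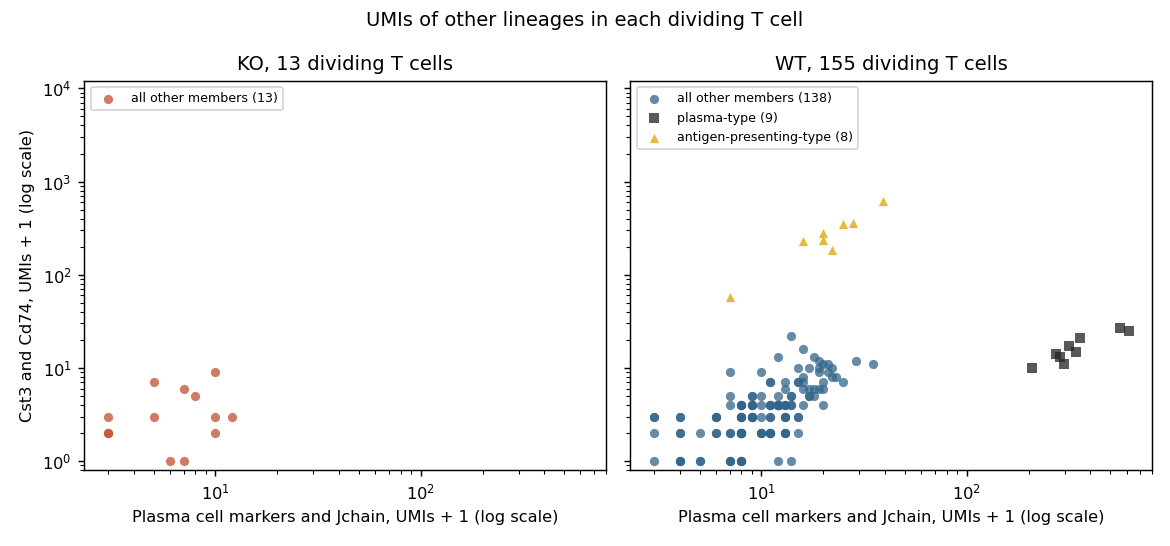
Each point is 1 dividing T cell, with its UMIs of Jchain and 5 plasma cell genes on the horizontal axis and of Cst3 and Cd74 on the vertical axis, 1 added to each, both on log scales. All 13 KO cells and 138 WT cells lie together at the low end, while 9 WT cells stand apart to the right and 8 stand apart at the top.

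Dividing cells made up 1.37% of T cells in KO (13 of 950, Clopper-Pearson interval 0.731 to 2.33%) and 4.83% in WT (155 of 3212, 4.11 to 5.62%). Without the cells of other lineages the shares were 1.39% and 4.50%. The gate counts UMIs and so finds dividing cells more easily among deep cells: with each cell thinned to 2000 UMIs before gating, 5 of 711 T cells passed in KO (0.703%, 0.229 to 1.63%) and 40 of 2605 in WT (1.54%, 1.10 to 2.09%), and these intervals overlap. Outside the T cell gate, 2.20% of cells in KO and 4.0% in WT had at least 3 UMIs of Mki67 and Top2a. T cells were 7.10% of all cells past that threshold in KO (13 of 183) and 33.5% in WT (155 of 462), while T cells by the gate were 10.9% of all KO cells and 29.5% of all WT cells.

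At the threshold, cells just inside had 3 UMIs of Mki67 and Top2a (3 cells in KO and 26 in WT) and cells just outside had 2 (12 in KO and 69 in WT). Pclaf was at 109 and 208 CPM just inside, in KO and WT, and at 79.6 and 191 just outside. In KO the 2 Pclaf UMIs just inside came from 1 cell, and so did the 8 just outside. In WT, Stmn1 was at 420 CPM just inside and 261 just outside. In WT both genes were also found in cells just outside, in 25 cells for Pclaf and 33 for Stmn1. There were 7 KO members and 115 WT members with 5 or more UMIs.

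The division genes that the gate did not read were high in both libraries. Pclaf, a PCNA-binding factor of DNA replication, was at 326 CPM in KO dividing T cells and 5.79 in other KO T cells, and at 513 in WT dividing T cells and 16.6 in other WT T cells. Stmn1, which destabilises microtubules, was at 473 and 28.1 in KO and at 582 and 45.2 in WT. Birc5 (survivin), which guides chromosomes on the spindle, was at 124 and 2.79 in KO and at 166 and 6.47 in WT. In cells thinned to 2000 UMIs, Pclaf was found in 5 of 13 dividing T cells in KO, against 0.559% of other T cells and 1.18% of plasma cells, some of which divide too. In WT it was found in 59.9% of dividing T cells, against 1.92% of other T cells and 4.95% of plasma cells. Unthinned, it was found in 8 of 13 dividing T cells in KO and in 84.1% in WT.

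Promoters of 3 division genes, of which Top2a is a gate gene, are shown because genes of G2 and M phase are known to share CCAAT boxes, bound by NF-Y, and TTTGAA elements, the core of the cell cycle genes homology region bound by the DREAM and MuvB complexes. Top2a encodes topoisomerase II alpha, Cks1b a subunit of cyclin-dependent kinases, and Pclaf is named above. The sequences are the 250 bases upstream of the start in the gene's direction, from RefSeq on GRCm38.p6: Top2a at chr11:99024190-99024439 (minus strand), Cks1b at chr3:89418292-89418541 (minus strand) and Pclaf at chr9:65890073-65890322 (plus strand). Capitals mark CCAAT or TTTGAA on either strand, the reverse being ATTGG or TTCAAA, which do not overlap one another here.
Top2a: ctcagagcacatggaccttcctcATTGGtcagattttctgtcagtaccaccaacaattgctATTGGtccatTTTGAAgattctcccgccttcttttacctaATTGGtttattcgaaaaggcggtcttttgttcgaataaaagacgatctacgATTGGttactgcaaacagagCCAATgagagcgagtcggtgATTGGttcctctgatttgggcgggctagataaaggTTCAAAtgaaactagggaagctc
Cks1b: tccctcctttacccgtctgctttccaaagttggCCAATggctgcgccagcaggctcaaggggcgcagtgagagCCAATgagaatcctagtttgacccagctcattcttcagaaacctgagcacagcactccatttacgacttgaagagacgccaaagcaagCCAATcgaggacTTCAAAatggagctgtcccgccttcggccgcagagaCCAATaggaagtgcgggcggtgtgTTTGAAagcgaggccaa
Pclaf: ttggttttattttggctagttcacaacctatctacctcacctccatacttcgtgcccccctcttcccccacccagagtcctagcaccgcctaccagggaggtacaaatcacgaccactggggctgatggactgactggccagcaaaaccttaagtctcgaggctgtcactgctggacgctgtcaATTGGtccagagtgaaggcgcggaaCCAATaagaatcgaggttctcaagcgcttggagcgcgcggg
The Top2a window held CCAAT 6 times and TTTGAA 2 times, the Cks1b window 4 and 2 times, and the Pclaf window CCAAT 2 times and no TTTGAA. They were picked from 5 windows read: Tubb5 held CCAAT 2 times and no TTTGAA, and Birc5 held neither. Of the 53 genes of the G2 and M phase list, 47 matched a promoter by symbol, and 36 of these (76.6%) held CCAAT and 20 (42.6%) TTTGAA within 250 bases upstream. Of the 42 S phase genes, 30 matched, with CCAAT in 70.0% and TTTGAA in 6 of the 30. Of the 12 genes highest in dividing T cells, named below, 10 matched, with CCAAT in 5 and TTTGAA in 1. Of the 12 lowest, 8 matched, with CCAAT in 4 and TTTGAA in 1. Over all 32851 promoters the shares were 33.8% and 16.0%, where each promoter counts once, while in the lists a gene counts once, with a match in any of its promoters. A match describes letters in the window and not binding. Cks1b itself was at 116 CPM in KO dividing T cells and 7.51 in other KO T cells, and at 178 and 14.6 in WT.

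Levels of all genes were compared between dividing and other T cells within each library, as CPM of the summed UMIs of the set. Genes counted if they had at least 50 UMIs over both sets and were found in 5% or more of the cells of 1 set, with the genes of the gate left out, and log2 ratios were taken after adding 50 CPM, which understates the change of low genes. Of 7471 genes in KO, 122 (1.63%) were at least 2-fold higher in dividing T cells and 126 (1.69%) at least 2-fold lower. Of 9926 genes in WT, 106 (1.07%) were higher and 29 (0.292%) lower. Without the cells of other lineages the counts were 121 (1.65%) and 123 (1.68%) of 7321 genes in KO and 116 (1.2%) and 28 (0.289%) of 9692 in WT. Of the 7416 genes counted in both libraries, 121 were higher in KO and 83 in WT. Of these, 55 were higher in both, which is 45.5% of the KO list and 66.3% of the WT list. On the lower side, with 125 in KO and 28 in WT, 14 were shared, 11.2% and 50% of the lists. Of the 55, 36 were in the lists of cell division genes. In KO these lists held 24 S phase, 22 G2 and M phase, 44 other division, 6 histone and 12 cyclin genes of the 7471 counted. The lists share genes such as Ccnd2. The contrast is the one that chose the cells, so these counts describe them. In KO the dividing and other T cells also differed in sex-linked RNA, described at the end, and its part was not tested.

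The 12 genes highest in dividing over other T cells in both libraries had varied roles. Hist1h2ap, a replication-dependent histone H2A gene, was at 791 CPM in KO dividing T cells and 8.80 in other KO T cells, an 89.9-fold difference (interval 62.0 to 133), and at 302 and 9.84 in WT, a 30.7-fold difference (25.6 to 37.1). In KO, 10 of the 13 cells held it and the highest cell held 33 of 102 UMIs. Histone genes are near-identical copies of each other, so reads may be split among them. Pola1, the catalytic subunit of DNA polymerase alpha, was 11.7-fold higher in KO (8.34 to 16.1) and 8.91-fold higher in WT (7.96 to 9.96). Brca1, which repairs broken and stalled forks by homologous recombination, was 31.9-fold higher in KO (18.9 to 53.7) and 20.4-fold higher in WT (16.5 to 25.3). Ncapg2, a condensin II subunit, was 16.1-fold higher in KO and 12.2-fold in WT, Cenpp, a centromere protein, 18.1-fold in both, and Diaph3, a formin that assembles actin, 7.60-fold in KO and 5.65-fold in WT. The tubulin genes Tubb5 and Tuba1b, the nucleosome-binding Hmgn2 and Dut, which keeps uracil out of DNA, complete the leading 12 with Pclaf and Stmn1, at 9.62-, 7.76-, 8.08- and 7.28-fold in KO and 7.40-, 7.23-, 6.70- and 5.53-fold in WT.

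The same division genes were not all equally counted. Of the 42 S phase genes, 24 passed the filter in KO and 39 in WT, and 22 and all 39 of these lay above 0, with 9 and 18 at least 2-fold higher. Of the 53 G2 and M phase genes, which include both gate genes, 22 passed in KO and 44 in WT, with 8 and 14 at least 2-fold higher. Genes that pass only through the dividing cells had to differ, so these counts say how many were seen. Mcm5, a helicase subunit, was at 109 CPM in KO dividing T cells, against 6.01, and at 101 in WT, against 10.3. Pcna, the sliding clamp of DNA polymerases and a p53 target, was less far apart, at 194 and 161 in KO and at 300.4 and 137 in WT. After thinning, Pcna was found in 2 of 13 KO dividing T cells (1.92 to 45.4%), against 27.8% of other T cells. Unthinned, all 13 held it, against 49.7%. In WT its thinned shares were 38.0% and 24.6%. In thinned cells, any of Mcm2 to Mcm7 was found in 9 of 13 dividing T cells in KO, against 20.2% of other T cells and 10.8% of plasma cells, and in 62.8% of dividing T cells in WT, against 22% of other T cells and 15.5% of plasma cells. Unthinned, the shares of dividing T cells were 12 of 13 in KO and 94.2% in WT. Cyclins D2 and D3, which act in G1, were lower in dividing T cells of both libraries: Ccnd2 was at 132 and 227 CPM in KO and at 91.6 and 176 in WT, and Ccnd3 at 124 and 145 in KO, where the interval of the ratio (0.488 to 1.4) includes 1, and at 74.7 and 138 in WT.

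Single members differed widely in their UMIs of phase genes. Over the 42 S phase genes, KO cells without other lineages held 5 to 98 UMIs (median 32) and WT cells 3 to 222 (median 38). Over the 51 G2 and M phase genes left after the gate genes, KO cells held 4 to 150 UMIs (median 54) and WT cells 7 to 452 (median 81). The KO cells with the fewest S phase UMIs held 5, 5 and 13 of them, with 9, 4 and 9 G2 and M phase UMIs. That is near the medians of 5 and 9 in other T cells. G2 and M phase UMIs outnumbered S phase UMIs in 9 of 13 KO cells and in 117 of 138 WT cells. Their share of the summed UMIs of both lists had a median of 60.5% in KO, with the 10th and 90th percentiles at 45.0 and 66.6%, and a median of 66.5% in WT, with 47.9 and 82.1%. Other T cells, with medians of 5 S phase UMIs and 9 G2 and M phase UMIs in both libraries, had medians of 60.0% in KO and 64.3% in WT, with 10th and 90th percentiles of 36.4 and 80.0% in KO and 41.7 and 84.6% in WT. The share does not separate the sets, and no phase was assigned to cells. A gate on Mki67 and Top2a, both G2 and M phase genes, may leave out cells early in S phase, which was not tested.

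**Figure D2:**
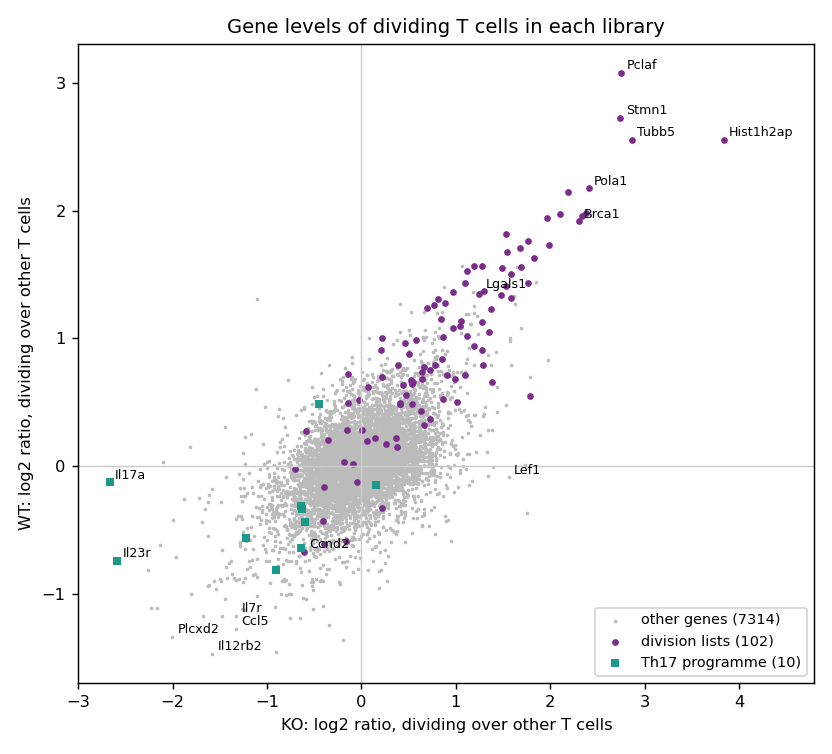
Each point is a gene counted in both libraries, with its log2 ratio of dividing over other T cells in KO on the horizontal axis and in WT on the vertical axis, over all members by the rule. Genes of the division lists extend to the upper right, led by Pclaf and Hist1h2ap, and Il17a and Il23r of the Th17 programme lie at the far left, at −2.67 and −2.59 in KO against −0.13 and −0.74 in WT.

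The 10 highest genes of both libraries outside the division lists were of several kinds. Anp32b, a histone chaperone, was 4.38-fold higher in KO dividing T cells (interval 3.23 to 5.84) and 4.27-fold in WT (3.93 to 4.63). Mms22l and Atad5, which act at stalled replication forks and unload PCNA, were 11.4- and 11-fold higher in KO and 8.18- and 8.80-fold in WT, and Topbp1, an activator of the ATR kinase, 5.62- and 4.28-fold. Zfp367, Hint1, Cbx3 (heterochromatin protein HP1 gamma), Alyref (mRNA export) and Snrpe (spliceosome) were 2.70- to 9.04-fold higher in KO and 2.56- to 6.23-fold in WT. Lgals1, the lectin galectin-1, was 3.43-fold higher in KO (2.28 to 5.0) and 2.95-fold in WT (2.76 to 3.15).

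Genes of energy metabolism differed in part. Of 22 nuclear genes of the respiratory chain, 21 were above 0 in each library, with a median log2 ratio of 0.48 in KO and 0.58 in WT, against −0.01 and 0.04 over all genes counted. In each, 1 was at least 2-fold higher, Cox5b in KO (264 and 95.1 CPM) and Ndufa4 in WT (511 and 226). Of 16 glycolysis genes, 13 were above 0 in WT but 6 in KO. Ldha, lactate dehydrogenase A, was at 132 and 122 in KO, where the interval of the ratio is 0.627 to 1.75, and at 324 and 159 in WT, a 2.04-fold difference (1.86 to 2.23). Hk2, hexokinase 2, had 3 UMIs in 1 KO dividing cell and was at 23.3 and 169.5 CPM, and at 91.6 and 111 in WT. Of 20 genes tied to MYC-driven biosynthesis, 13 of 19 counted in KO and 18 of 20 in WT were above 0.

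The 12 genes lowest in dividing T cells of both libraries held cytokine receptors beside genes of other kinds. Il12rb2, a chain of the IL-12 receptor, was at 85.4 and 355 CPM in KO (ratio 0.241, interval 0.120 to 0.432) and at 162 and 538 in WT (0.301, 0.268 to 0.338). Il7r, the IL-7 receptor that keeps resting T cells alive, was at 77.6 and 270 in KO (0.288, 0.138 to 0.531) and at 137 and 373 in WT (0.368, 0.324 to 0.417). Ccl5, a chemokine stored in memory and cytotoxic T cells, was at 225 and 640 in KO and at 574 and 1462 in WT. Zeb1, a zinc finger repressor, was at 1203 and 2852 in KO and at 923 and 2464 in WT. Kdm5b, Plcxd2, Ramp3, Mpp7, Epb41, Sntb1, St6galnac3 and Sipa1l1 complete the lowest 12, with ratios of 0.0973 to 0.407 in KO and 0.226 to 0.470 in WT. Kdm5b, a histone H3 lysine 4 demethylase, rests on 2 UMIs in KO dividing T cells.

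As a list, 14 of the 20 cytokine receptor and signalling genes counted in KO and 20 of 22 in WT were below 0, with median log2 ratios of −0.31 and −0.50, and 3 in each were at least 2-fold lower. Immediate early genes, induced within minutes of a stimulus or of handling, were below 0 in 16 of 19 in KO and in all 19 in WT, with medians of −0.36 and −0.46. Junb, an AP-1 subunit, was at 1521 and 2604 CPM in KO and at 690 and 1637 in WT. Bcl2, which protects resting lymphocytes from apoptosis, was at 101 and 275 in KO and at 94.3 and 214 in WT. All 16 genes of the S100 and galectin list counted in WT were above 0, and 11 of 15 in KO, with medians of 0.41 and 0.44.

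The p53 targets, the irradiation response genes, were split. Cdkn1a, the cell cycle inhibitor p21, was at 318 CPM in KO dividing T cells and 436 in other KO T cells (ratio 0.730, interval 0.522 to 0.994), and at 150 and 256 in WT (0.585, 0.517 to 0.661). In thinned cells a Cdkn1a UMI was found in 5 of 13 dividing T cells in KO, against 47.3% of other T cells and 19.5% of plasma cells, and in 24.1% in WT, against 33.8% and 13.6%. Unthinned, 11 of 13 KO and 65.2% of WT dividing T cells held it, against 66.0% and 51.4% of other T cells. Btg2, an antiproliferative p53 target that is also an immediate early gene, was at 334 and 497 in KO and at 142 and 368 in WT. Bbc3 (PUMA), a p53-induced killer protein, was at 124 and 38.6 in KO, with 16 UMIs in 6 cells, and at 31.3 and 22.9 in WT. Rps27l, another p53 target, was at 178 and 95.7 in KO and at 246 and 97.9 in WT. Of the 25 p53 targets, 21 were counted in each library. In KO 14 were above 0 and 7 below, with a median of 0.40, and in WT 12 and 9, with a median of 0.05. The KO median rests on the settings: it was 0.75 with at least 5 gate UMIs and 0.15 with levels averaged over cells.

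CD8 and CD4 T cells both divided in WT. By Cd8a, Cd8b1, Cd4, Foxp3 and Trdc UMIs, 51 of 155 WT members were CD8 (32.9%, 25.6 to 40.9%), 53 CD4 without Foxp3 (34.2%), 5 regulatory (3.23%), 7 carried both Cd4 and Cd8 UMIs, none was gamma-delta and 39 had no type. Among other WT T cells 20.1% were CD8, 28.5% CD4 without Foxp3 and 46.0% had no type. In KO, 1 of 13 members was CD8 (7.69%, 0.195 to 36.0%), 3 were CD4 without Foxp3, 1 carried both, none was regulatory or gamma-delta and 8 had no type. Among other KO T cells 12.7% were CD8, 24.9% CD4 without Foxp3 and 58.8% had no type. For the types not seen in KO, 0 of 13 allows a share of up to 23.1%. The gamma-delta type required a Trdc UMI and no Trbc1 or Trbc2 UMI, so cells with both were not counted under it. Without cells of other lineages, 5 of 138 WT dividing T cells held a Trdc UMI (3.62%, 1.19 to 8.25%). Among other WT T cells 1.91% did (1.45 to 2.48%), and these intervals overlap. Thinned, the WT shares were 2.19% and 1.28%. Whether the 5 were gamma-delta was not tested. In KO 0 of 13 dividing T cells held it, against 3.37% of other T cells.

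More UMIs per cell find more types, so the shares were set at equal depth as well. In thinned WT cells without other lineages, 27 of 137 dividing T cells were CD8 (19.7%, 13.4 to 27.4%), against 15.1% of other T cells (13.8 to 16.5%), and 19 were CD4 without Foxp3 (13.9%, 8.56 to 20.8%), against 16.9% (15.6 to 18.4%). These intervals overlap. A Cd8a or Cd8b1 UMI was found in 20.4% of thinned WT dividing T cells and in 0.932% of plasma cells, and a Cd4 UMI in 15.3% and 2.29%, at unthinned median depths of 10544 and 9412 UMIs. In KO no thinned dividing T cell was CD8 and 1 of 13 was CD4, against 7.82% and 11.7% of other T cells. Turned round, 7.67% of CD8 T cells in WT were dividing (51 of 665, 5.76 to 9.96%), 5.74% of CD4 T cells without Foxp3 (53 of 923, 4.33 to 7.44%) and 4.35% of regulatory T cells (5 of 115, 1.43 to 9.85%). These shares are unthinned, and 2.70% of cells of no type were dividing. With types read from thinned cells, and members by the full counts, the WT shares were 5.96% of CD8 (27 of 453), 3.83% of CD4 without Foxp3 (19 of 496), 1 of 50 regulatory T cells and 4.61% of cells of no type. In KO the unthinned shares were 1 of 120 CD8, 3 of 236 CD4 without Foxp3 and 0 of 29 regulatory T cells.

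**Figure D3:**
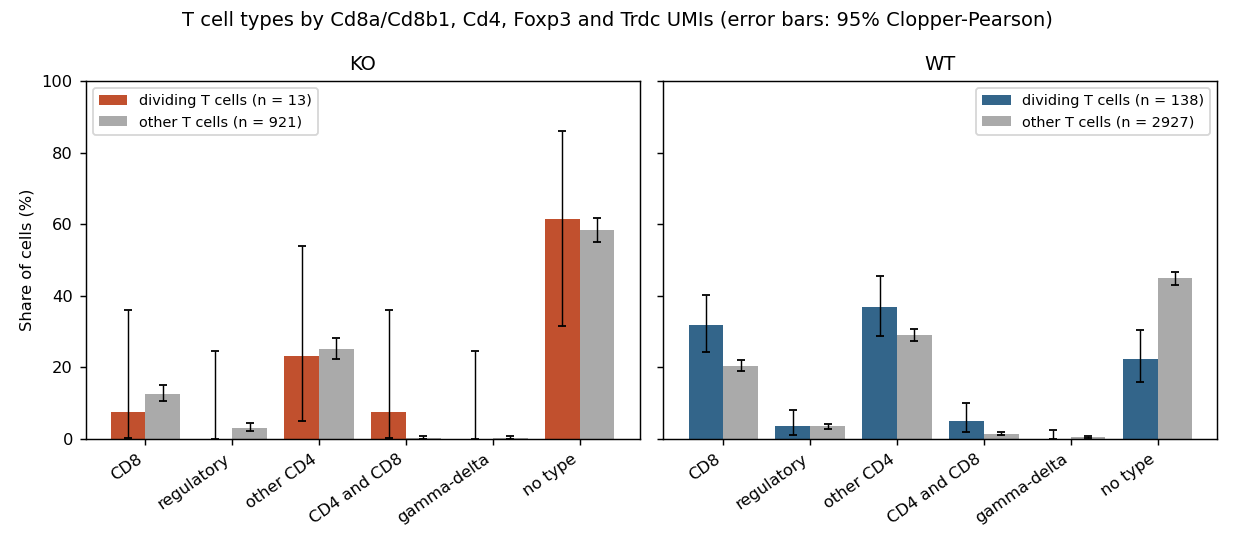
Bars give the share of T cells of each type in percent, KO left and WT right, with dividing T cells in colour and other T cells in grey, without cells of other lineages and without thinning. Error bars are 95% Clopper-Pearson intervals. In WT 31.9% of dividing T cells were CD8, against 20.5% of other T cells, while the KO bars rest on 13 cells and the intervals of dividing and other T cells overlap for every type.

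Among WT dividing T cells, summed levels of cytotoxic genes were higher on the CD8 side and those of Th17 genes on the CD4 side. For this, 44 dividing CD8 T cells were set against 56 dividing CD4 T cells (regulatory included), without cells of other lineages. Of 4136 genes counted, 41 (0.991%) were at least 2-fold higher in the CD8 cells and 59 (1.43%) at least 2-fold lower. The 12 genes furthest apart each way are named here, a choice made after their values were seen, with the type-defining genes left out. The granzymes Gzma and Gzmb, proteases that kill target cells, were at 2027 and 1348 CPM in dividing CD8 cells and at 247 and 174 in dividing CD4 cells, 8.20-fold (interval 6.98 to 9.68) and 7.74-fold (6.38 to 9.45) higher. Ccl5 was at 1288 and 126, and Nkg7, which drives the release of cytotoxic granules, at 615 and 114. Gzmk, Klrk1 (the receptor NKG2D), Klrc1 (NKG2A), Ly6c2, Setbp1, Plxdc2, Lgals3 and Alcam were 3.38- to 21.1-fold higher in CD8 cells. Of 24 cytotoxic genes 15 were counted, and 10 were at least 2-fold higher in CD8 cells.

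On the CD4 side, Il17a, the signature cytokine of Th17 cells, was at 6.19 CPM in dividing CD8 cells and 312 in dividing CD4 cells, from 3 and 222 UMIs. Il17f was at 10.3 and 153, Il22, a cytokine that acts on the epithelium, at 6.19 and 187, and Tnfsf11 (RANKL) at 31.0 and 396. Plcb4 and Nav2 had 1 UMI each in the CD8 cells and were at 263 and 251 CPM in the CD4 cells. Tnfsf8 (CD30 ligand), Pde5a, Ramp3, Odc1, Furin and Nebl complete the 12. Of 14 Th17 programme genes 7 were counted, and 6 were at least 2-fold lower in dividing CD8 than in dividing CD4 cells. The division lists did not part the types: the median log2 ratio of CD8 over CD4 cells was 0.25 over 31 S phase genes and 0.01 over 34 G2 and M phase genes, against 0.02 over all genes counted, and none was 2-fold apart.

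Of the 24 genes, all but Plxdc2 had the same direction in T cells outside the gate. Between other CD8 and other CD4 T cells of WT, Ccl5 was at 4452 and 331, Il17a at 29.4 and 360.5 and Tnfsf11 at 94.3 and 550. Plxdc2 was not apart there, at 51.8 and 54.4, but was at 190 and 18.3 in dividing cells, from 92 and 13 UMIs. Gzmb was at 839 and 308 in other T cells, a log2 ratio of 1.31, against 2.64 in dividing ones.

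**Figure D4:**
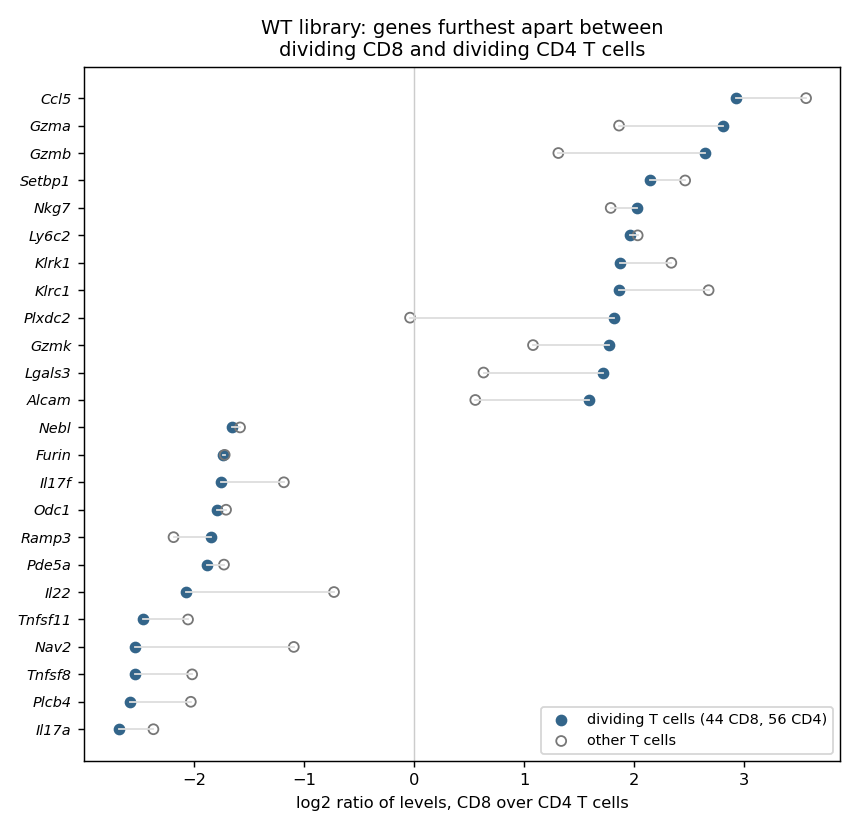
Log2 ratio of levels between CD8 and CD4 T cells of WT for the 12 genes highest and the 12 lowest in dividing cells. Filled points are dividing T cells (44 CD8 and 56 CD4), open points other T cells, and a line joins the 2 values of a gene. Ccl5, Gzma and Gzmb lie highest in dividing cells, at 2.92, 2.80 and 2.64, and Il17a lowest, at −2.69.

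Il17a and Il23r were lower in KO dividing T cells than in other KO T cells. Il17a had 1 UMI in the 13 KO dividing T cells (7.76 CPM), against 318 CPM in other KO T cells, a ratio of 0.0244 (interval 0.000618 to 0.136). In WT it was at 206 in dividing and 230 in other T cells, with 32 of 155 members holding it and 1 cell holding 21.6% of the UMIs. Il23r, the IL-23 receptor that sustains Th17 cells, also had 1 UMI in KO members (7.76 and 298 CPM), and was at 109 and 215 in WT. In thinned cells, Il17a or Il17f was found in 0 of 13 KO dividing T cells, against 13.5% of other T cells and 1.48% of plasma cells, and in 15.3% of WT dividing T cells, against 10.4% and 1.72%. Unthinned, it was 1 of 13 in KO and 30.4% in WT, against 16.6% and 13.6% of other T cells. A count of 0 in 13 allows 23.1%, above the 13.5% of other KO T cells, so a lower share was not detectable at this number of cells. Other genes of the programme were closer. Il17f was at 23.3 and 50.2 CPM in KO, where the interval of the ratio (0.0949 to 1.37) includes 1, and Il22, with 15 of its 16 UMIs in 1 cell, at 124 and 106 CPM.

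Between the libraries, 5610 genes were counted in dividing T cells. Of these, 68 (1.21%) were at least 2-fold higher in KO and 108 (1.93%) at least 2-fold lower. Without the cells of other lineages, 5111 were counted, 68 (1.33%) higher and 87 (1.7%) lower. Values between KO and WT below are from the 13 KO cells and the 138 WT cells without other lineages unless another set is named. Of those with either Xist or Y-linked UMIs alone, Xist cells were 12.5% in KO and 49.4% in WT. The part of sex in the values below was not tested.

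Among the 10 genes lowest in KO, several came from the 17 WT cells. Over all members Cst3 was at 77.6 CPM in KO and 768 in WT, Cd74 at 186 and 786 and Jchain at 473 and 2171. Without those cells their log2 ratios were −0.26, −0.08 and −0.61. Cd86 and Rbm47 rested on 1 and 2 UMIs in KO, and their log2 ratios were −1.67 and −1.68 with those cells and −0.45 and −1.03 without them. Hsp90b1, a chaperone of the endoplasmic reticulum that secretory cells hold at high level, was at 217 in KO and 1094 in WT with all members, and at 217 and 626 without the 17. Il17a, Gzma, Ifitm2 and Plcb4 were low in KO in both sets. Gzma was in 3 of 13 KO cells (186 CPM) and in 77 of 138 WT cells (1046), a ratio of 0.178 (interval 0.114 to 0.266), and in other T cells it was at 322 in KO and 703 in WT. Thinned, Gzma was found in 3 of 13 KO cells (5.04 to 53.8%) and in 29.2% of WT cells (21.7 to 37.6%), and these intervals overlap. Unthinned, a Gzma UMI was also found in 14.3% of KO plasma cells and 29.8% of WT plasma cells. Plcb4, a phospholipase C, and Ifitm2, an antiviral membrane protein, had no UMI in KO and were at 158 and 114 CPM in WT. These WT levels were 6.78-fold and 4.91-fold the KO limit of 3 counts, which leaves out the counting error of WT. Over all members the intervals of the ratio, KO over WT, were 0 to 0.215 and 0 to 0.206. Plcb4 and Ifitm2 were found in 41 and 66 of 138 WT cells, with up to 37 and 15 UMIs in 1 cell. In other T cells Plcb4 was at 171 in KO and 141 in WT, and Ifitm2 at 82.6 and 141.

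Of the 10 genes highest in KO, most rested on few cells. Penk, a neuropeptide precursor, had 46 UMIs in KO, 45 of them in 1 cell. Aff3 had 69 of 75 UMIs in 1 cell, Hspa1b, the inducible chaperone HSP70, 83 of 98, Igf1r 39 of 49, Xcl1 42 of 59 and Tnfsf8 70 of 115. Gbe1 and Nfkbia were spread more widely. For Braf, found in all 13 KO cells, 1 cell held 32 of 98 UMIs, and 2 cells held 35 and 27 of the 95 Lef1 UMIs. The KO cells with the fewest S phase UMIs had the highest levels per 10000 of Hspa1b (192), Braf (89.7) and Lef1 (41.3). Nfkbia, the NF-kB inhibitor that NF-kB itself induces, was found in all 13 KO cells and in 114 of 138 WT cells. Per 10000 UMIs its lowest, median and highest cells were at 1.03, 13.6 and 37.6 in KO and at 0, 2.33 and 28.2 in WT. Its pooled level was 1210 CPM in KO and 350 in WT, a 3.46-fold difference (2.88 to 4.14), against 1054 and 579 in other T cells. Lef1, a transcription factor of naive and early memory T cells, was found in 9 of 13 KO cells and 81 of 138 WT cells, at a median of 2.79 per 10000 (lowest 0, highest 41.3) in KO and 0.905 (0 to 16.9) in WT. Its pooled level was 737 and 188, a 3.92-fold difference (3.08 to 4.95), and 225 and 195 in other T cells. In thinned cells Lef1 was found in 6 of 13 in KO (19.2 to 74.9%) and in 25.5% in WT (18.5 to 33.7%), and these intervals overlap.

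Cytotoxic genes split: 16 of 24 were counted, and 5 were at least 2-fold lower in KO and 1, Xcl1, at least 2-fold higher, with a median log2 ratio of −0.05. In other T cells 20 of 21 were below 0 and 3 at least 2-fold lower, with a median of −0.19. Nkg7 was in 5 of 13 KO cells and 91 of 138 WT cells, at 77.6 and 323 CPM, and Gzmb in 7 and 90 cells, at 248 and 709. In other T cells they were at 80.2 and 237, and at 230 and 432. Thinned, Nkg7 was found in 2 of 13 KO and 42.3% of WT dividing T cells, and Gzmb in 2 of 13 and 36.5%. The KO interval of each (1.92 to 45.4%) overlaps that of WT (33.9 to 51.1% and 28.4 to 45.1%). Unthinned plasma cells held Nkg7 in 3.50% of KO and 12.2% of WT cells, and Gzmb in 9.20% and 19.3%. The T cell type mix moves with these genes, since 1 of 13 KO and 44 of 138 WT cells were CD8, and its part in them was not tested. Over all members, the median log2 ratio of the cytotoxic list was −0.12 as summed and −0.25 with an equal mix of types on both sides. In the equal mix, 1 KO cell stands for all KO CD8 cells. Naive and memory genes had a median log2 ratio of 0.28 over 11 counted, 9 of them above 0, against 0.10 over 14 in other T cells, 10 of them above 0. Bach2, a repressor that holds T cells in a resting or memory state, was in all 13 KO cells, at 2816 and 1169 CPM, against 1852 and 1626 in other T cells, and per 10000 it ran from 11.4 to 67.3 (median 22.7) in KO and from 0 to 53.1 (median 10.0) in WT.

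Immediate early genes had a median log2 ratio of 0.62 over 17 counted, with 16 above 0, against 0.26 over 19 in other T cells and −0.03 over all genes counted in dividing T cells. Dusp1, a phosphatase that shuts off MAP kinases, was in all 13 KO cells and 124 of 138 WT cells, at 660 and 273 CPM, and Nr4a3, a nuclear receptor induced by T cell receptor signals, in 13 and 107 cells, at 551 and 227. In other T cells Dusp1 was at 871 and 552 and Nr4a3 at 835 and 588. The KO cells with the fewest S phase UMIs (5, 5 and 13), near the level of other T cells, are part of these values. Per 10000 they held Nr4a3 at 9.25, 28.0 and 1.53 and Dusp1 at 11.6, 5.61 and 15.3. The medians of the 13 cells were 5.08 and 5.61. The part of these low cells in the list values was not tested. p53 targets had a median of 0.50 (0.89 with at least 5 gate UMIs) over 15 counted, with 12 above 0, against 0.15 over 21 in other T cells. Cdkn1a was at 318 and 153 CPM, 2.08-fold higher in KO (1.46 to 2.91), with 15 of its 41 KO UMIs in 1 cell, and at 438 and 259 in other T cells. Bbc3 was at 124 and 23.4, from 16 and 37 UMIs.

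Several metabolic lists had lower levels in KO, but genes tied to MYC-driven biosynthesis did not stand apart, with a median log2 ratio of −0.09 over 19 counted, 6 of them above 0. Glycolysis genes were below 0 in all 15 counted, with a median log2 ratio of −0.67, against −0.08 over 16 in other T cells, and nucleotide synthesis genes in all 13 counted, with a median of −0.49, against 0.04 over 11. The genes counted were not the same in dividing and other T cells. In dividing T cells the filter, passed mostly through WT, leans such counts below 0. Ldha was at 132 and 354 CPM (ratio 0.373, interval 0.216 to 0.603), with 7 of its 17 KO UMIs in 1 cell. Respiratory chain genes were below 0 in all 22, with a median of −0.34, but also in all 22 in other T cells, with a median of −0.25. S100 and galectin genes were below 0 in 13 of 14, with a median of −0.59, and in all 15 in other T cells, with a median of −0.40. Lgals1 was in 9 of 13 KO cells and 120 of 138 WT cells, at 233 and 715 CPM, and in other T cells at 66.7 and 224. Actb, beta-actin, which no list holds and which was picked after its values were seen, was at 4252 and 10862 CPM, with KO cells from 4.63 to 82.5 per 10000 (median 39.2) and WT cells from 0 to 291 (median 86.1), and in other T cells at 2080 and 3855. Over all members the medians of the division lists were 0.04 for S phase and −0.13 for G2 and M phase genes. With an equal mix of types they were −0.17 and 0.18. In that setting 1 KO cell, with 26 S phase and 137 G2 and M phase UMIs, stands for all KO CD8 cells. Its part in the change of direction was not tested. Without cells of other lineages, S phase genes, with a median of −0.02 over 34, and G2 and M phase genes, with a median of −0.22 over 39, had 0 and 1 member at least 2-fold apart, the 1 being Ccnb2 (cyclin B2), with no UMI in KO and 83 in WT. Ccnb2 was counted through WT alone, where 54 of 138 cells held it, at most 4 UMIs in a cell. At 0 in KO, it can still lie at up to 23.3 CPM there.

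**Figure D5:**
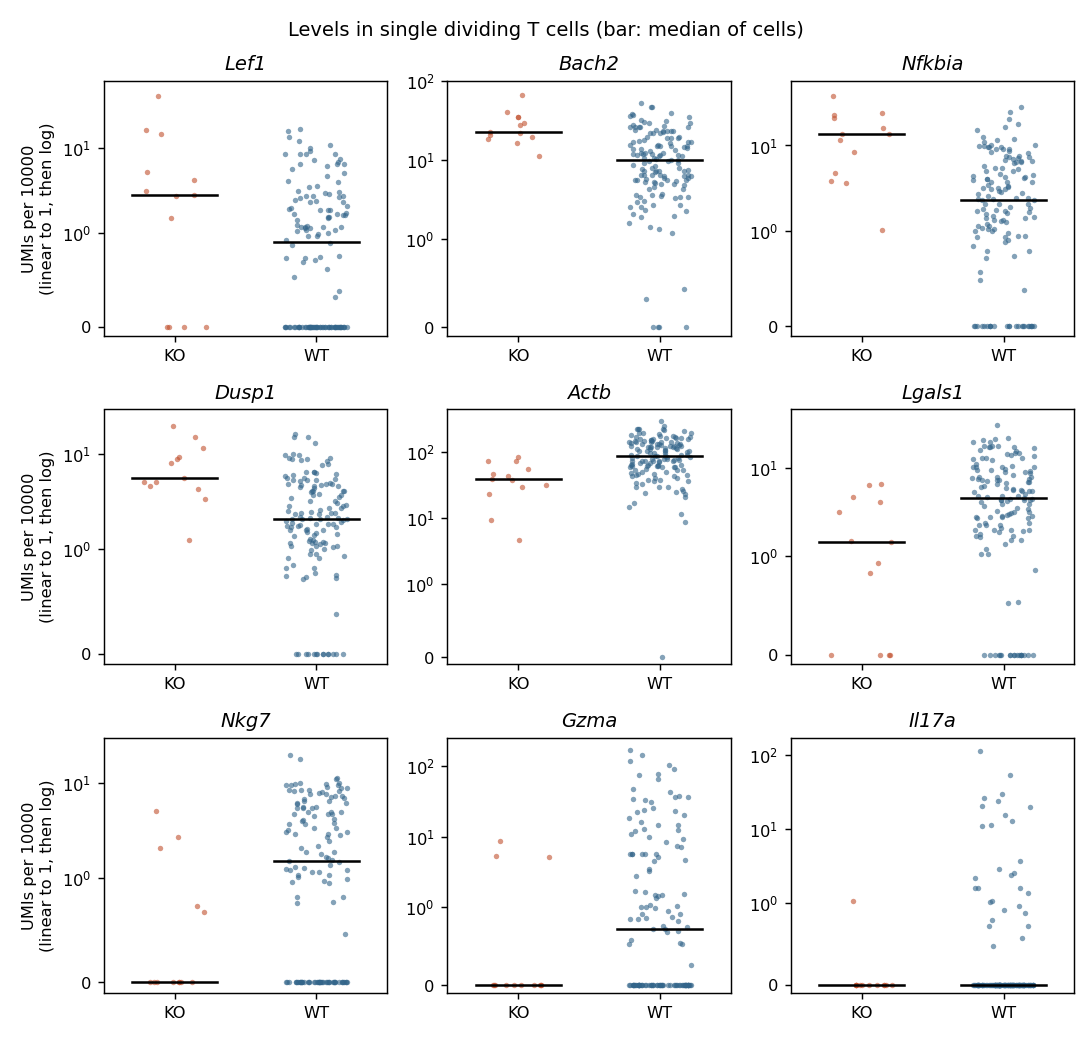
Each point is 1 dividing T cell without UMIs of other lineages, 13 in KO and 138 in WT, with its UMIs of the gene per 10000 on an axis that is linear to 1 and logarithmic above. Bars mark the median of cells. Nfkbia medians are 13.6 in KO and 2.33 in WT and Actb medians 39.2 and 86.1, while Gzma and Il17a have a median of 0 in KO, and Il17a also in WT. The genes shown were picked after their values were seen.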

How the data were processed

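Raw UMI counts for each gene in each cell barcode are what the authors deposited. The file headers name Cell Ranger 7.0.0 as the software, and GRCm38 is the build named by the submitters' processing notes. Which annotation was used, and whether reads in introns were counted, the labels do not say. Barcodes with under 500 UMIs, under 200 genes or over 20% mitochondrial UMIs were left out (34 and 79 of KO, for depth and for mitochondrial share, and 5 and 57 of WT). Counts were summed over the cells of a set and given per 1000000 UMIs (CPM), with exact Poisson, conditional binomial and Clopper-Pearson intervals at 95% (scipy 1.17.1), which cover counting error only. With 1 library per genotype no test was run. Doublets were called per library with Scrublet in scanpy 1.11.5 (4.79% of KO and 5.85% of WT cells) and kept unless stated. The comparison was tested on simulated data with known folds. T cell types were set from at least 1 UMI, in a fixed order: gamma-delta (Trdc, no Trbc1 or Trbc2), both Cd4 and Cd8, CD8, regulatory (Foxp3), other CD4. Cells of other lineages had at least 10 UMIs of 5 plasma cell genes, at least 100 of Jchain, or at least 40 of Cst3 and Cd74, limits set after the cells had been seen. Thinned shares left out 26 T cells of KO and 112 of WT under 2000 UMIs.

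Named genes are the 12 highest and 12 lowest in both libraries between dividing and other T cells, the 10 highest outside the division lists, the 10 highest and 10 lowest between KO and WT, and up to 4 members of a list by their log2 ratio. Other genes were named for their role after their values had been seen. Antigen receptor segments, sex-linked, mitochondrial and unnamed genes were left out of the ranking. The members and the 37 gene lists were chosen with earlier results of these data known. Promoter sequences are RefSeq entries on GRCm38.p6.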

Additional observations from a re-analysis of the deposited data

Results flagged for a closer look

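Cst3 (cystatin C), abundant in antigen-presenting cells, moved in opposite directions in the libraries over all members by the rule. Its log2 ratio of dividing over other T cells was −1.11 in KO and 1.31 in WT, and the difference was not tested. Without the 17 WT members and the other T cells that carry UMIs of other lineages, the ratios were −0.02 in KO and −0.04 in WT.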

How the results depend on the processing

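No paired analysis was possible because each genotype has 1 library, and no replicate could be left out. At least 5 gate UMIs, removal of Scrublet doublets, at least 4 T cell receptor UMIs, thinning, a pseudocount of 10, no filter on low counts, averages over cells and an equal mix of types were tried where they apply. Leaving out cells of other lineages was chosen after seeing the data. The dividing share was 0.703% in KO and 1.54% in WT after thinning, and in WT 3.58% with at least 5 gate UMIs and 6.07% with at least 4 receptor UMIs. The CD8 share was 0% of 5 thinned dividing T cells in KO and 20% of 40 in WT. Genes at least 2-fold apart between dividing and other T cells numbered 453 in KO with at least 5 gate UMIs and 1329 with a pseudocount of 10, against 248, and 488 in WT with a pseudocount of 10, against 135. Between KO and WT they numbered 291 and 832 in the same settings, against 176, and with a pseudocount of 10 the split was 221 higher and 611 lower, against 68 and 108. Hspa1b, higher in KO through 1 cell, had a log2 ratio of −0.42 with at least 5 gate UMIs, and the cause was not tested. Of 768 values for 96 genes in a comparison, 640 stayed within counting error of the reported value, 127 moved beyond it and 1 reversed. Medians of lists moved most with at least 5 gate UMIs: in KO between dividing and other T cells, cytokine receptors were at −0.59, against −0.31, immediate early genes at −0.60, against −0.36, and S100 and galectin genes at 0.21, against 0.44. Between KO and WT, naive and memory genes were at 0.63 in that setting, against 0.33 over all members, and nucleotide synthesis genes at −0.66 with a pseudocount of 10, against −0.38. With 128882 UMIs in 13 KO cells, depth limits every value of the KO dividing T cells.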

Other observations

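Both libraries held T cells with Xist UMIs and no UMI of Y-linked genes, and T cells with the reverse. Of dividing T cells without other lineages, 1 in KO had Xist UMIs alone and 7 had Y-linked UMIs alone, so that Xist cells were 12.5% of the 8 (interval 0.316 to 52.7%), against 63.8% of other KO T cells (59.9 to 67.6%). These intervals do not overlap, though the first rests on 8 cells. In WT the numbers were 44 and 45, and Xist cells were 49.4% (38.7 to 60.2%), against 48.3% of other T cells (46.2 to 50.5%). Put as a share of T cells dividing, Xist cells were at 0.248% (0.00628 to 1.37%) and Y-linked cells at 2.98% (1.21 to 6.04%) in KO, where the intervals overlap, and at 4.07% and 3.90% in WT. Overlap of intervals does not show that the KO shares are alike.

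Variable segments of the T cell receptor beta chain were found in 3 of 13 KO and 23 of 138 WT dividing T cells. The 23 WT cells held 11 different segments as their leading one. Trbv12-2 and Trbv19 led in 5 cells each, and they were also the leading ones among other WT T cells, with 68 and 42 of 220 cells. In KO, Trbv12-2 led in 2 of the 3 cells.

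Markers of natural killer and group 2 innate lymphoid cells were rare among members. Ncr1, Klrb1c, Eomes and Klra8 together had 3 UMIs in KO members, in 1 cell, and 31 in WT members, in 16 cells, at most 6 in a cell. Il1rl1 and Il13 had 1 UMI in KO and 57 in WT, 22 of them in 1 cell, and 1 KO member held 14 UMIs of Fcer1g, while the myeloid genes Cd68, Csf1r and Itgam were at 0 in all KO members. Fibroblast genes (Col1a1, Col3a1, Dcn and Pdgfra) were at 7.76 CPM (UMIs per 1000000) in dividing and 7.94 in other T cells of KO, and at 45.6 and 229 in WT.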
